A study of Mus musculus with 18 samples.

Results

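Control type 1 innate lymphoid cells (ILC1s) sorted from the spleen were compared with control ILC1s sorted from the liver, 3 bulk RNA libraries of each organ and 6 of the 18 libraries in the series. The libraries were chosen by their labels alone, and every gene with enough counts was tested in a fit of these 6 libraries. The mice of both groups carried Ncr1-Cre on the C57BL/6 strain and were 8 weeks old. Ncr1 encodes the receptor NKp46, so Cre is made in cells that express NKp46, and the control animals carry this Cre without the RARα403 allele. The series also holds spleen and liver ILC1s of Ncr1-Cre Rosa26-RARα403 mice, called RARa403 here, and control liver natural killer (NK) cells, with 3 libraries each, which are given beside the comparison, the NK cells as levels. RARa403 liver NK cells are not used here. Each library was made from 200 cells. ILC1s were sorted as CD3-negative cells with NK1.1, NKp46, CD49a and the IL-7 receptor and with little CD49b, so the genes for these proteins (Cd3e, Klrb1c, Ncr1, Itga1, Il7r and Itga2) were part of the gate. The labels do not say which animal gave which library, so the p-values reflect how far libraries of a group differ, which may be technical.

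ILC1s are lymphocytes of the innate immune system that stay in tissues, produce interferon-γ and need the transcription factor T-bet. NK cells are their circulating relatives, and they also need the factor Eomes. In the mouse liver, ILC1s live in the sinusoids and are held there with help from CXCR6 and CD49a, whereas S1P receptors guide lymphocytes through blood and lymphoid organs. Ly49 receptors, encoded by Klra genes, read MHC class I molecules and viral ligands and mark NK cells more than liver ILC1s.

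The spleen ILC1 libraries held 8214734, 7093353 and 5445189 counts, and the liver ILC1 libraries 7184888, 3452279 and 4549841. Xist, which is transcribed in female cells, had 0, 28 and 1404 counts in spleen libraries 1, 2 and 3, against 0, 0 and 891 counts in liver libraries 1, 2 and 3. Library 3 of each organ, and of the control NK cells with 596 counts, was thus the one with high Xist. The library names also share a number across organs, and library 1 of every group carries another first number than libraries 2 and 3; the labels do not say what these numbers stand for. All 6 libraries carried the ILC1 signature gene Cxcr6 at 8.08 log2 CPM, the counts scaled to library size, or more, where control NK libraries had 0, 2 and 0 counts. Tbx21, the gene for T-bet, was at 9.27, 9.95 and 9.50 log2 CPM in spleen and at 9.32, 9.76 and 9.65 log2 CPM in liver libraries. Cxcr6 and Tbx21 were therefore present in both organs.

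Transcripts of other cells differed between libraries and not only between organs. The summed level of 31 B cell genes was 928.4, 2360 and 10050 CPM in spleen libraries 1, 2 and 3, against 1109, 1153 and 1381 CPM in liver libraries. B cell and immunoglobulin genes together took 0.101%, 0.248% and 1.12% of the counts in spleen libraries 1, 2 and 3, against 0.121%, 0.121% and 0.144% in liver libraries. The excess over liver was therefore in spleen libraries 2 and 3 and not in library 1. In spleen library 1, 12 of the 31 B cell genes had no counts, against 0 in spleen libraries 2 and 3 and 13, 17 and 16 in liver libraries. Much of the level that all libraries shared came from Ighm and Cd37, at 8.29 log2 CPM or more in each of the 6. The 18 macrophage genes summed to 13.5, 160 and 611 CPM in spleen, against 337, 13.7 and 0.215 CPM in liver. The 14 erythroid and platelet genes summed to 488, 1559 and 596 CPM in spleen, against 2972, 661 and 246 CPM in liver. Both of these lists overlapped between the organs. Mitochondrial transcripts made up 0.614%, 0.652% and 1.46% of counts in spleen and 0.646%, 0.455% and 0.499% in liver libraries, with the highest share in spleen library 3. In bulk libraries, fewer cells of a type and less RNA per cell cannot be told apart.

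**Figure D1:**
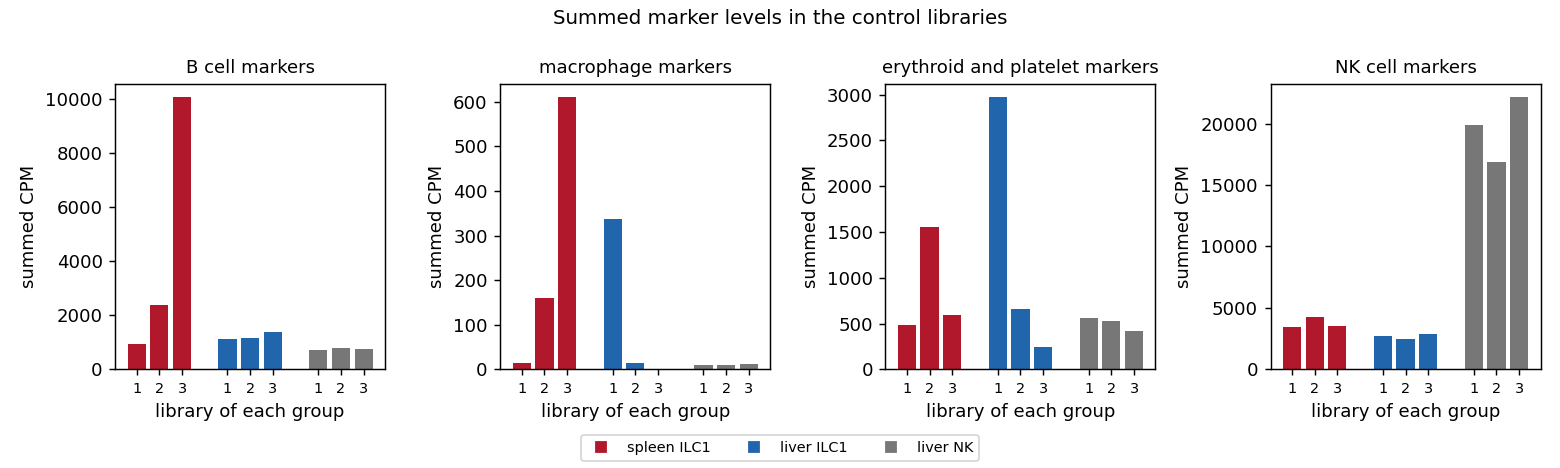
Summed CPM of the B cell, macrophage, erythroid and platelet, and NK cell marker lists in each control library, with one bar per library and the libraries of a group numbered 1 to 3. Spleen libraries 2 and 3 stand above all liver libraries in the B cell list, at 2360 and 10050 CPM, while spleen library 1 is at 928.4 CPM.

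Spleen library 1 also stood apart in ILC1 genes. For each library, genes were taken whose remaining libraries differed by at least 1 log2 unit between the organs, and the left-out library was placed by the organ mean it was nearer to. In spleen library 1, 9 of 9 such residency genes, 16 of 18 ILC1 signature genes and 9 of 12 egress genes were nearer to the liver mean. The same counts were 0 of 4, 0 of 8 and 0 of 9 in spleen library 2, and 0 of 3, 0 of 7 and 0 of 9 in spleen library 3. Liver library 2 was placed nearer to spleen in 4 of 7 residency genes, 8 of 13 ILC1 signature genes, 7 of 11 egress genes and 5 of 9 Ly49 genes, so a liver library also stood apart from its group in these lists. By this placement the resemblance of spleen library 1 to liver did not cover every group of genes, since only 2 of 9 Ly49 genes and 12 of 29 cell cycle genes of spleen library 1 were nearer to liver. The summed Ly49 level was 479, 1457 and 969.2 CPM in spleen libraries 1, 2 and 3, and 608.2, 414 and 461 CPM in liver libraries. In that sum spleen library 1 lay within the liver range. Over all genes tested, 56.7% were nearer to liver in spleen library 1, and the liver libraries had 54.9%, 57.9% and 52.7% nearer to spleen, so placement over all genes did not separate the organs. Library 1 was set aside for its liver-like values, so the comparison without it describes spleen libraries 2 and 3. The p-values of that comparison are no independent test for residency, ILC1 and egress genes. This also holds for any other gene in which library 1 was liver-like.

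Tested with edgeR (quasi-likelihood, Benjamini-Hochberg adjusted), no gene passed an adjusted p of 0.05 with spleen library 1 (0 of 11989 genes, smallest adjusted p 0.437) or without it (0 of 12520 genes, smallest adjusted p 0.207). At an unadjusted p under 0.05 there were 451 genes (3.76%) with it and 773 (6.17%) without it, where 599.4 and 626 would be reached by p-values spread evenly. limma-voom called 0 and 1. DESeq2 called 36 genes from all 6 libraries, 19 higher (0.159%) and 17 lower (0.142%) in spleen. From the 5 libraries without it DESeq2 called 217 genes, 116 higher (0.927%) and 101 lower (0.808%), and 14 of the 116 were B cell or immunoglobulin genes. The spread between libraries of an organ, as edgeR's biological coefficient of variation, was 0.595 with library 1 and 0.62 without it. Among libraries 2 and 3 of both organs, which share the first number of their names, 0 genes passed, and the list medians were -1.02 for cell cycle, -0.90 for residency, -0.99 for ILC1 signature, 1.63 for egress, 1.55 for NK and 2.54 for Ly49 genes; the other first number has 1 library per organ and allows no test. The differences below are therefore given as values in each library, with log2 fold changes of spleen over liver and their standard errors (SE).

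Genes of mitosis had lower values in spleen ILC1s than in liver ILC1s, by more in spleen libraries 2 and 3 than in library 1 for several of them. Of 50 cell cycle genes, all tested, 44 had a negative fold change with a median of -1.11, where the median of all genes tested was 0.01. Every spleen library was below every liver library in 25 of the 50, against 4.43% of all genes, and 22 of the 50 had a lower value at an unadjusted p under 0.05, against 1.82% of all genes. DESeq2 called 7 of the 50, all lower, against 0.142% of all genes. Leaving out spleen library 1, the median was -1.46, every spleen library was below every liver library in 32 genes (10.3% of all genes), and 24 were lower at an unadjusted p under 0.05 (2.92% of all genes). DESeq2 then called 14, all lower, against 0.808% of all genes.

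The gene with the smallest p among those lower in spleen was Spc25, which encodes a subunit of the NDC80 complex that ties kinetochores to microtubules. Spc25 had 1.77, 1.74 and 2.35 log2 CPM in spleen libraries 1, 2 and 3, against 5.92, 5.28 and 4.87 log2 CPM in liver libraries. The groups were far apart, and the spleen libraries lay within a narrow range. The log2 fold change was -3.55 ± 0.51 (SE, n = 3 each, edgeR adjusted p = 0.437, DESeq2 adjusted p = 4.1e-07), and -3.45 ± 0.57 without spleen library 1. Nuf2, another subunit of that complex, had no counts in spleen libraries 1 and 2 and -0.28 log2 CPM in library 3, against 4.28, 3.66 and 3.88 log2 CPM in liver. Cdc20, the activator of the anaphase-promoting complex, had 3.45, 2.70 and 2.49 log2 CPM in spleen, against 5.45, 5.10 and 4.97 log2 CPM in liver, a log2 fold change of -2.29 ± 0.47 (edgeR adjusted p = 1.00, DESeq2 adjusted p = 0.0096). Again no spleen library reached the lowest liver library.

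Mki67, the gene for the proliferation antigen Ki-67, had 4.04, 3.03 and 2.58 log2 CPM in spleen and 6.44, 4.86 and 5.24 log2 CPM in liver libraries. Top2a, the topoisomerase that untangles chromosomes, had 5.30, 4.98 and 3.21 log2 CPM in spleen and 7.29, 7.03 and 6.52 log2 CPM in liver. Their log2 fold changes were -2.37 ± 0.59 and -2.26 ± 0.50. In both genes spleen library 1 was the highest of its group and still below the liver libraries. Kif11, a spindle motor gene, had 4.30 log2 CPM in spleen library 1, no counts in library 2 and -0.62 log2 CPM in library 3, against 4.61, 5.78 and 4.73 log2 CPM in liver. Its log2 fold change was -2.38 ± 1.48 over 6 libraries and -7.61 ± 1.12 without spleen library 1, which lay just below the liver libraries. Ube2c, a ubiquitin-conjugating enzyme gene of the anaphase-promoting complex, had 3.15 log2 CPM in spleen library 1 and no counts in libraries 2 and 3, against 5.61, 4.21 and 4.61 log2 CPM in liver.

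Ckap2l, a spindle protein gene, had no counts in any spleen library and 220, 39 and 132 counts in liver libraries, at least 53.6-fold lower in spleen against a floor of 3 counts per library. Pimreg, a gene linked to mitotic progression, likewise had no counts in spleen and 147, 31 and 25 in liver, at least 26.3-fold lower. Ckap2l and Pimreg could pass the count filter only through liver libraries, so their direction is no test. Hmmr, which encodes a spindle-associated hyaluronan receptor, was at -0.88, -1.17 and -0.62 log2 CPM in spleen and at 2.84, 2.49 and 3.84 log2 CPM in liver. The cytokinesis kinase gene Cit had 2.99, 3.05 and 2.15 log2 CPM in spleen and 5.40, 4.82 and 4.68 log2 CPM in liver, and the microtubule polymerase gene Ckap5 5.17, 5.41 and 5.09 in spleen and 6.65, 6.26 and 6.34 in liver. By the same rule for naming genes, Vill (log2 fold change -7.19) and Spin2c (-1.33) were also below liver in every spleen library. Vill had 2, 0 and 0 counts in spleen, so the filter fixed its direction. Without spleen library 1 the rule also named Birc5 (-4.21) and Kif2c (-9.81).

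The difference lay in the genes of mitosis more than in those of DNA replication, a split of the list by textbook role made after the values were seen. All 25 mitosis genes had a negative fold change (median -2.37), and in 22 of them every spleen library was below every liver library. Of 20 replication genes, 15 had a negative fold change (median -0.29), and in 2 every spleen library was below every liver library. The share over all genes was 4.43%. The mean level of the 25 mitosis genes was 2.95, 1.79 and 1.14 log2 CPM in spleen libraries 1, 2 and 3, against 5.50, 4.68 and 4.38 log2 CPM in liver libraries and 4.28, 1.06 and 1.09 log2 CPM in control liver NK libraries. The mean of the 20 replication genes was 4.77, 5.34 and 4.99 log2 CPM in spleen and 5.47, 5.71 and 5.05 log2 CPM in liver. The licensing helicase gene Mcm2, for example, had 6.09, 6.31 and 6.45 log2 CPM in spleen and 6.40, 6.42 and 5.84 in liver, with overlapping groups, and the sliding clamp gene Pcna had 6.80, 6.77 and 6.58 in spleen and 7.11, 6.89 and 6.45 in liver. Mcm4 was an exception among the helicase genes, with 6.55, 6.97 and 6.64 log2 CPM in spleen, all below 7.29, 7.67 and 7.74 in liver. Among the spleen libraries, the mitosis mean was lowest in library 3, with the most B cell transcripts, and highest in library 1, with the fewest. Removing the B cell and immunoglobulin genes before the fit gave a list median of -1.10, but this leaves other RNA of such cells in place. The part of B cells in the result was not tested.

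**Figure D2:**
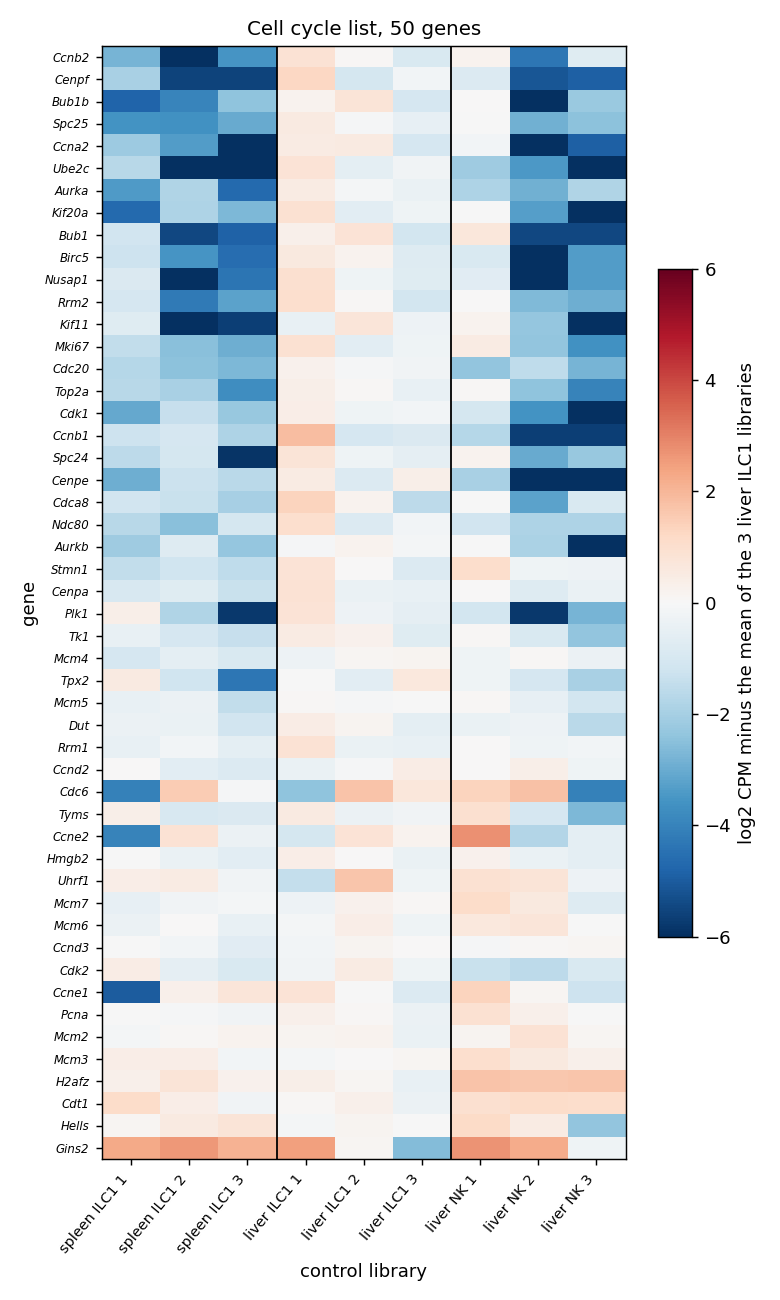
Level of the 50 cell cycle genes in each control library, as log2 CPM minus the mean of the 3 liver ILC1 libraries, with blue for lower and red for higher values and genes ordered by the spleen over liver fold change. The upper rows, mostly mitosis genes, are mainly blue in the 3 spleen ILC1 libraries, and the replication genes that fill most of the lower rows are nearer to 0.

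The promoters of 4 mitosis genes named above and of the replication genes Pcna and Mcm2, whose groups overlapped, are shown because many mitosis genes are known to share a pair of promoter elements, the cell cycle genes homology region (CHR, letters TTTGAA) and the CCAAT box (letters CCAAT). The sequences are from RefSeq, build GRCm38.p6, each 300 bases long from upstream of the gene's start into its first bases, 5′ to 3′ on the gene's strand, with the letters of either element on either strand in capitals.
Spc25 promoter, chr2:69206164-69206463, minus strand: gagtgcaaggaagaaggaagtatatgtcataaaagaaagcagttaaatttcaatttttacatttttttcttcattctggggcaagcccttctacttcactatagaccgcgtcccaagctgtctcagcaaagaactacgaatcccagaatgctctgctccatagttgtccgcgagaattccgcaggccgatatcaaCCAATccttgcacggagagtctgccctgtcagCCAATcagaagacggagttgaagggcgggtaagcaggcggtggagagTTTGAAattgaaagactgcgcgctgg
Cdc20 promoter, chr4:118437294-118437593, minus strand: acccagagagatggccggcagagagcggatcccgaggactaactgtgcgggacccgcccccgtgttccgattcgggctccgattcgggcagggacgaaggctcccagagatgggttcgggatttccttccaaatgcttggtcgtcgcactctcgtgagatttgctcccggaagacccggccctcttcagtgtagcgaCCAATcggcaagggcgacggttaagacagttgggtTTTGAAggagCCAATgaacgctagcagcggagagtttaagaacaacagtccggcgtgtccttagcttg
Mki67 promoter, chr7:135716330-135716629, minus strand: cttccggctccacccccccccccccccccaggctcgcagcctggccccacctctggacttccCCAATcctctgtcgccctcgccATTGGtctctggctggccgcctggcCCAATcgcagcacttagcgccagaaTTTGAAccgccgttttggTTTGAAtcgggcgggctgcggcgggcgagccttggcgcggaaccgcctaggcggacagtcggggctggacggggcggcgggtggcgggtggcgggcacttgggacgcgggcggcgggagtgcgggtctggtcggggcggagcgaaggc
Top2a promoter, chr11:99024140-99024439, minus strand: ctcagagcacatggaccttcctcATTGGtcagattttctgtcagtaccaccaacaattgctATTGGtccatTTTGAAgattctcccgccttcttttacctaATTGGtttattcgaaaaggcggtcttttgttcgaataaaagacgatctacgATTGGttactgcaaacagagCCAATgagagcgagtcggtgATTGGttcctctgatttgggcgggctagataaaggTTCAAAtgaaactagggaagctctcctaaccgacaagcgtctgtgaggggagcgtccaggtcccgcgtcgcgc
Pcna promoter, chr2:132253131-132253430, minus strand: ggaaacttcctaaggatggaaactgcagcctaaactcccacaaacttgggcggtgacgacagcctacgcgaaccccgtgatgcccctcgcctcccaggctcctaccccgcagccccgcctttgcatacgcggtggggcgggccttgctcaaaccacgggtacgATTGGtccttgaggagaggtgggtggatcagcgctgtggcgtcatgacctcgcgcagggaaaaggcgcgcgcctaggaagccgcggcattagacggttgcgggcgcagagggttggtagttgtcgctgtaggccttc
Mcm2 promoter, chr6:88898731-88899030, minus strand: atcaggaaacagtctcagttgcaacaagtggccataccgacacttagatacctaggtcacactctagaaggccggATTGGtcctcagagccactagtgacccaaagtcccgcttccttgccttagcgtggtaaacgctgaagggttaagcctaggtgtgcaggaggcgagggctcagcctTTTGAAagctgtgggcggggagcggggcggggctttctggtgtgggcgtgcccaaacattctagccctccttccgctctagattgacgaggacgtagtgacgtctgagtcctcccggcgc
Spc25 and Cdc20 held the CHR letters once and the CCAAT letters 2 times each. Mki67 held them 2 and 3 times, Top2a 2 and 6 times, Pcna 0 times and once, and Mcm2 once each, so Mcm2 held both elements as the mitosis genes shown did. Among the other mitosis genes, Birc5 and Nusap1 held neither, and Bub1, Ccnb1 and Cenpe held the CCAAT letters without the CHR letters. Promoters were found for 40 of the 50 cell cycle genes. The CHR letters were in 42.5% of these 40 genes and in 20.2% of the 27025 genes of the RefSeq table, the CCAAT letters in 75% against 41.1%, and both in 40% against 7.97%. Both strands were searched, a gene with several promoters counted once if any of them matched, and matches of the 2 elements may share a base. These are matches of letters in a window, not tested sites. For the 25 list members with no overlap between the organs only 19 had a promoter, under 80%, so a share for that subset would be void.

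Spleen ILC1s had higher values of several Ly49 receptor genes and of other NK-associated genes. Of the 13 Ly49 genes and pseudogenes listed, 11 were tested. Of these, 9 had a positive fold change with a median of 1.93, and in 6 every spleen library was above every liver library, against 4.76% of all genes. Leaving out spleen library 1, the median was 2.25 and the number 7 (12.4% of all genes). DESeq2 called 4 of the 11 as higher in spleen with and without library 1, against 0.159% and 0.927% of all genes. Reads of these near-identical genes may be split among them, and the sources used here do not say how reads with several matches were counted. Klra8 and Klra4 had at most 9 counts in any liver library, so they could pass the count filter only through spleen libraries. Their direction was fixed by it and is no test, here or among the NK signature genes below.

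Klra8 encodes Ly49H, the activating receptor for a cytomegalovirus protein. It had 5.13, 7.28 and 5.43 log2 CPM in spleen libraries, against -0.80 log2 CPM, no counts and 0.67 log2 CPM in liver libraries 1, 2 and 3. Every spleen library, library 1 included, was above the liver libraries by more than 4 log2 units. The log2 fold change was 7.15 ± 0.99 (edgeR adjusted p = 0.437, DESeq2 adjusted p = 4.7e-13), and 7.49 ± 0.95 without spleen library 1. Control liver NK libraries had 10.51, 10.39 and 10.48 log2 CPM, above all ILC1 libraries. Klra4, the gene for the activating receptor Ly49D, had 3.50, 6.44 and 6.24 log2 CPM in spleen, against 0.60 log2 CPM in liver library 1 and no counts in liver libraries 2 and 3 (log2 fold change 6.76 ± 1.22, DESeq2 adjusted p = 0.023). The pseudogene Klra14-ps had 5.62, 6.48 and 5.67 log2 CPM in spleen and 3.22, 4.70 and 3.92 in liver, and Klra7, the gene for Ly49G, 6.95, 8.47 and 7.72 in spleen and 6.55, 5.48 and 3.75 in liver. Klra9 ran the other way, with 7.32, 7.47 and 6.82 log2 CPM in spleen and 8.53, 7.15 and 8.42 in liver, and its groups overlapped. The lectin receptor genes outside this family did not share the pattern: 12 of 17 had a negative fold change (median -0.23), and Klrk1, which encodes NKG2D, had 11.31, 11.40 and 11.06 log2 CPM in spleen and 11.21, 11.30 and 11.41 in liver.

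Of the 28 NK signature genes, which include 7 of the Ly49 genes, 26 were tested, 22 had a positive fold change (median 1.47), and in 9 every spleen library was above every liver library, against 4.76% of all genes. With library 1 left out these were 22 genes, a median of 1.81 and 17 genes, against 12.4% of all genes. Eomes, the T-box factor of NK cells, had 3.27, 7.69 and 5.91 log2 CPM in spleen libraries 1, 2 and 3, against 2.84, 4.90 and 1.30 log2 CPM in liver libraries, a log2 fold change of 2.84 ± 1.15, and 3.38 ± 0.97 without spleen library 1. Its groups overlapped through spleen library 1 and liver library 2. Control NK libraries were at a mean of 9.12 log2 CPM, above the highest spleen ILC1 library. Itgam, which encodes CD11b, had 4.44, 6.70 and 6.62 log2 CPM in spleen and 4.60, 4.93 and 5.13 in liver, and the transcription factor gene Zeb2 had 3.37, 6.90 and 6.36 in spleen and 4.88, 3.56 and 3.32 in liver. In both, spleen libraries 2 and 3 were above and library 1 was not. Sh2d1a, the gene for the adaptor SAP, had 4.83, 5.88 and 5.52 log2 CPM in spleen, above 3.66, 4.50 and 3.12 in liver in every library. Itga2, the CD49b gene and part of the gate, had 3.97, 5.46 and 5.48 log2 CPM in spleen and 4.02, 2.56 and 5.05 in liver. The NK list summed to 3441, 4228 and 3515 CPM in spleen and to 2725, 2490 and 2887 CPM in liver, with 19860, 16860 and 22140 CPM in NK libraries.

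Some further genes, named for the smallest p among those with no overlap, were also present in NK cells. Of these, Cmah is also a member of the egress list and is counted there. As3mt, an arsenite methyltransferase gene, had 4.77, 6.48 and 5.49 log2 CPM in spleen and 1.58, 3.07 and 3.25 in liver (log2 fold change 3.01 ± 0.62), with a range of 6.76 to 7.99 in NK libraries. Cmah, at 6.04 log2 CPM or more in every NK library, whose enzyme makes the sialic acid Neu5Gc, had 4.04, 5.67 and 5.61 log2 CPM in spleen, against no counts, 1.98 and 0.86 log2 CPM in liver libraries 1, 2 and 3 (4.57 ± 1.15). Cym, the chymosin gene, had 56, 40 and 100 counts in spleen libraries and none in liver, at least 15.6-fold higher, and 206, 429 and 594 counts in NK libraries. Fam69a (1.93 ± 0.44), Qrfp, a neuropeptide precursor gene (4.79 ± 1.01), and Nrp2, which encodes neuropilin-2 (6.27 ± 1.53), had no overlap either. Cxcl12, the stromal chemokine that binds CXCR4, had 23, 56 and 129 counts in spleen libraries and none in liver, at least 17.3-fold higher, and 0, 0 and 1 counts in NK libraries. Its order over the spleen libraries was that of the macrophage and B cell lists, and their part in it was not tested. Cym, Qrfp, Nrp2 and Cxcl12 had at most 4 counts in any liver library. They passed the count filter only through spleen libraries, so their direction is no test.

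Residency and ILC1 signature genes had lower values in spleen libraries 2 and 3 than in liver, but not in spleen library 1. Of the 18 residency genes, 17 were tested and 15 had a negative fold change with a median of -0.53 over 6 libraries, and in 2 every spleen library was below every liver library, against 4.43% of all genes. Without spleen library 1 all 17 had a negative fold change (median -1.22), 11 had no overlap (10.3% of all genes) and 12 were lower at an unadjusted p under 0.05 (2.92% of all genes). Of the 30 ILC1 signature genes, 29 were tested, 26 were negative with and without library 1, the median was -0.50 with it and -1.16 without it, and 4 and 20 genes had every spleen library below every liver library, against 4.43% and 10.3% of all genes.

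Cxcr6, the receptor that holds ILC1s in the liver sinusoids, had 10.25, 8.08 and 8.45 log2 CPM in spleen libraries 1, 2 and 3, against 10.05, 10.06 and 10.22 log2 CPM in liver libraries. Spleen library 1 was above all liver libraries, and libraries 2 and 3 were below them. The log2 fold change was -0.85 ± 0.51 over 6 libraries and -1.84 ± 0.19 without library 1 (edgeR adjusted p = 0.207, the smallest of that fit). Rgs1, a regulator of chemokine signalling, had 8.62, 6.95 and 6.83 log2 CPM in spleen and 8.12, 8.50 and 8.29 in liver, and the inhibitory receptor genes Cd200r1 and Cd200r2 were at 7.90, 5.63 and 6.33 and at 7.17, 5.44 and 5.45 log2 CPM in spleen, against 7.32, 6.95 and 8.51 and 7.21, 6.70 and 8.05 in liver. Each had library 1 within or above the liver values and libraries 2 and 3 below them. Mmp9, a gelatinase gene, showed the same order with 7.50, 5.17 and 5.22 log2 CPM in spleen and 7.23, 7.61 and 9.06 in liver. Zfp683, the gene for the residency factor Hobit, had 6.48, 4.79 and 5.62 log2 CPM in spleen and 7.11, 5.43 and 7.88 in liver, with overlap in both comparisons.

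Tnfsf10 and Itga1 were the residency genes that had lower values in every spleen library, library 1 included. Tnfsf10, which encodes the death ligand TRAIL, had 7.45, 6.68 and 6.20 log2 CPM in spleen, against 7.81, 7.71 and 8.27 in liver, a log2 fold change of -1.08 ± 0.33 and, without library 1, -1.50 ± 0.27. Itga1, the CD49a gene and a gate marker, had 7.48, 7.27 and 6.29 log2 CPM in spleen and 7.55, 8.05 and 8.46 in liver (-0.97 ± 0.34). Il7r, also a gate marker, was the opposite, with 8.69, 9.45 and 9.23 log2 CPM in spleen and 7.73, 8.07 and 8.64 in liver (0.95 ± 0.28, and 1.14 ± 0.27 without library 1), and no overlap. Ncr1, a further receptor of the gate, had 11.12, 11.14 and 11.10 log2 CPM in spleen and 11.41, 11.18 and 11.56 in liver. Cd69, an early activation and retention gene, and Itgae, which encodes CD103, had fold changes of 0.00 ± 0.30 and 0.08 ± 0.96 over 6 libraries and -0.33 ± 0.27 and -0.54 ± 1.14 without library 1, within their errors.

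**Figure D3:**
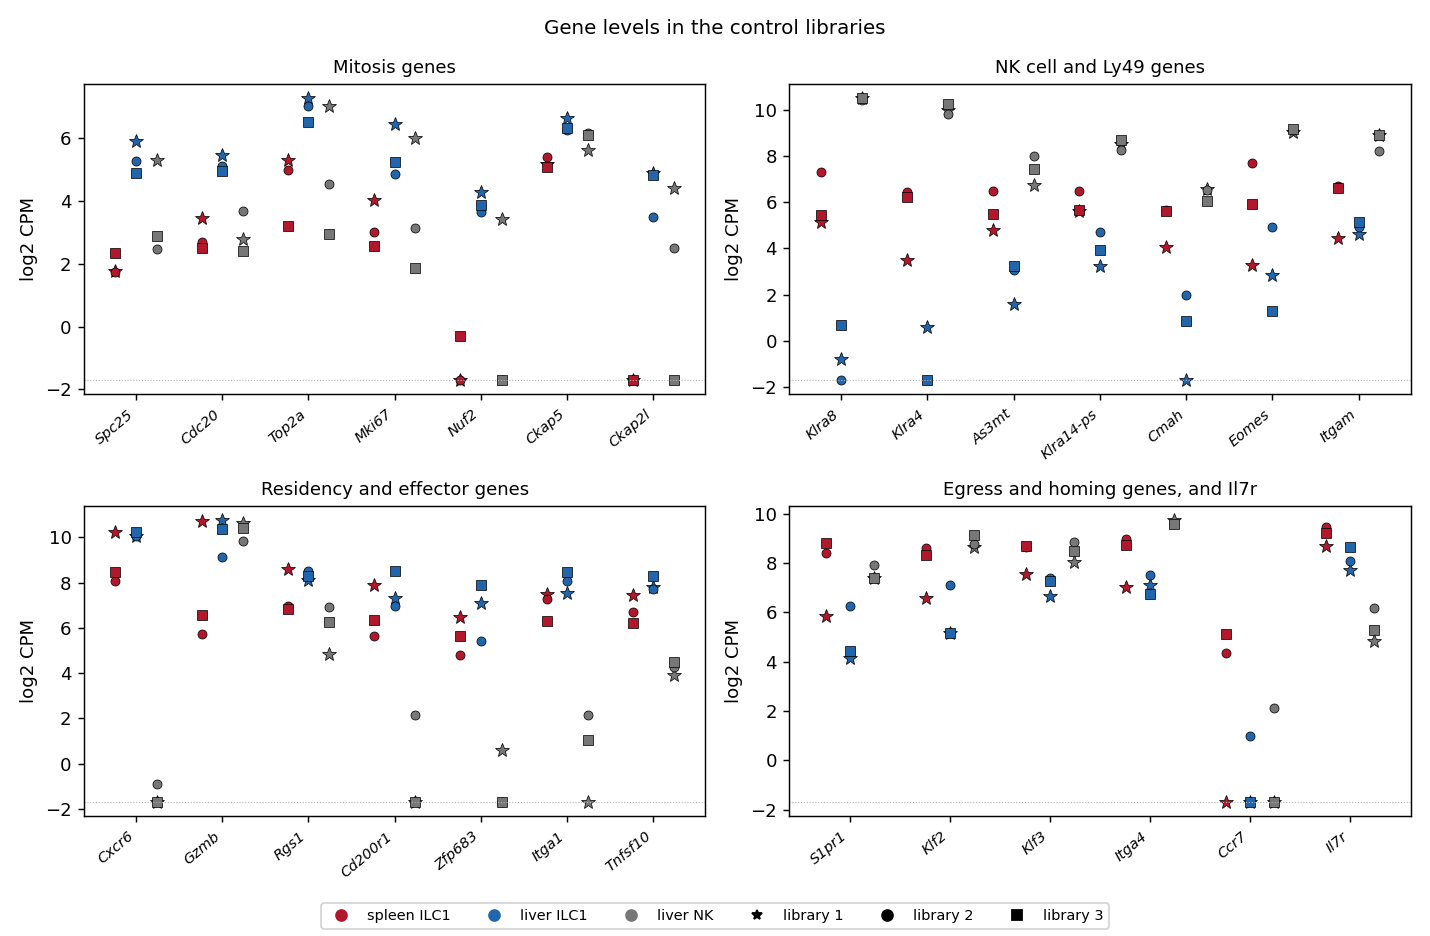
Log2 CPM of named genes in each control library, by 4 groups of genes, with spleen ILC1s in red, liver ILC1s in blue and liver NK cells in grey, a star for library 1, a circle for library 2 and a square for library 3, and a dotted line at the value of a gene with no counts. Spleen library 1 lies on the side of the other spleen libraries in the mitosis and Ly49 genes shown, and within or above the range of the liver libraries in Cxcr6 and Gzmb.

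Egress and lymphoid homing genes had higher values in spleen, mainly in libraries 2 and 3. All 17 were tested, 15 had a positive fold change (median 1.24), 11 had a higher value at an unadjusted p under 0.05, against 1.94% of all genes, and in 5 every spleen library was above every liver library, against 4.76%. Without spleen library 1 the median was 1.52, 12 genes were higher at an unadjusted p under 0.05 (3.25% of all genes), and 13 had no overlap (12.4%). S1pr1, the receptor that lets lymphocytes leave tissues, had 5.85, 8.39 and 8.82 log2 CPM in spleen libraries, against 4.15, 6.24 and 4.45 log2 CPM in liver libraries, a log2 fold change of 2.90 ± 0.81 and, without library 1, 3.38 ± 0.62. Spleen library 1 lay between the liver libraries, and liver library 2 was the highest of its group. Klf2, the factor that drives S1pr1, had 6.59, 8.61 and 8.30 log2 CPM in spleen and 5.17, 7.10 and 5.15 in liver (1.95 ± 0.66), and its relative Klf3 7.54, 8.64 and 8.69 in spleen and 6.68, 7.37 and 7.27 in liver (1.24 ± 0.33). The α4 integrin gene Itga4 had 7.03, 8.97 and 8.74 log2 CPM in spleen and 7.09, 7.53 and 6.74 in liver. Ccr7, the receptor that leads cells into lymph nodes, had no counts in spleen library 1 and 4.34 and 5.12 log2 CPM in libraries 2 and 3, against 0.99 log2 CPM in liver library 2 and no counts in the other two. The factor genes Tcf7 (log2 fold change 1.08 ± 0.52) and Lef1 (1.05 ± 0.44) were higher in spleen libraries 2 and 3 than in any liver library. The egress genes summed to 4147, 7051 and 5904 CPM in spleen libraries 1, 2 and 3, where the B cell list was also highest in libraries 2 and 3, and to 3484, 4170 and 4029 CPM in liver libraries; the part of B cell transcripts was not tested. S1pr1 and Klf2 were also at 7.40 log2 CPM or more in every control NK library.

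Among the effector genes, the spleen libraries differed widely in the granzyme genes Gzmb and Gzmc. Gzmb, the granzyme B gene, had 10.70, 5.73 and 6.56 log2 CPM in spleen libraries 1, 2 and 3, against 10.77, 9.14 and 10.37 log2 CPM in liver libraries. Library 1 was within the liver range and libraries 2 and 3 were far below it, so the log2 fold change was -1.005 ± 1.11 over 6 libraries and -4.05 ± 0.57 without library 1 (edgeR adjusted p = 0.207, DESeq2 adjusted p = 4.1e-16). Because library 1 was set aside for liver-like values such as this one, these p-values are no independent test. Gzmc followed the same order, with 5.85 log2 CPM, no counts and 1.34 log2 CPM in spleen libraries 1, 2 and 3 and 6.39, 5.18 and 6.34 log2 CPM in liver. Over 6 libraries the list as a whole showed no direction, with 8 of 16 tested genes positive and a median of -0.0045. Without spleen library 1, 7 of 16 were positive (median -0.13). Then 6 genes had every spleen library below every liver library (10.3% of all genes) and 1 above (12.4%). DESeq2 called 5 without library 1, all lower, against 0.808% of all genes. These counts are likewise no independent test. Gzma had 10.48, 9.57 and 9.76 log2 CPM in spleen and 9.84, 9.28 and 10.28 in liver, and the perforin gene Prf1 8.67, 8.81 and 8.22 in spleen and 7.75, 8.21 and 8.61 in liver, with overlap in both. Ifng, the gene for interferon-γ, had 8.09, 7.03 and 7.24 log2 CPM in spleen and 6.59, 7.94 and 6.59 in liver (0.34 ± 0.44). Over 6 libraries, none of the 15 tested cytokine genes had groups without overlap, against 4.76% of all genes above and 4.43% below.

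Among cytokine receptor and signalling genes, Cish and Il21r again set spleen library 1 apart. Cish, a suppressor of cytokine signalling, had 7.85, 5.76 and 5.04 log2 CPM in spleen and 7.19, 7.23 and 7.12 in liver, a log2 fold change of -0.46 ± 0.62 over 6 libraries and -1.76 ± 0.29 without library 1. Il21r had 8.13, 6.58 and 7.12 log2 CPM in spleen and 7.86, 7.68 and 8.76 in liver. Over the 33 tested genes of the list the median was -0.07, and without library 1 it was -0.18 over 34. Gimap7, a lymphocyte survival GTPase gene, had 9.81, 8.58 and 8.26 log2 CPM in spleen and 9.65, 9.50 and 9.78 in liver, and all 8 Gimap genes had a negative fold change with and without library 1, with medians of -0.26 and -0.22. Among chemokine receptors, Ccr9, known for homing to the gut, had no counts in spleen library 1 and 0.86 and 1.76 log2 CPM in libraries 2 and 3, against 4.30, 4.07 and 4.40 log2 CPM in liver (-3.62 ± 1.23). It is also a marker of plasmacytoid dendritic cells, and the 11 dendritic cell genes summed to 604, 476 and 520 CPM in spleen and 681, 632 and 592 CPM in liver, so the part of such cells was not tested. Tgfb3, a TGF-β ligand gene, had 3.27, 4.25 and 4.92 log2 CPM in spleen, all above 2.16, 2.26 and 1.73 in liver (2.31 ± 0.68).

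Other lists had medians near 0. Over all genes tested with 6 libraries, every spleen library was above every liver library in 4.76% and below in 4.43%. The 39 tested transcription factor genes had a median of -0.05, with Tbx21 (0.00 ± 0.21), Gata3 (-0.10 ± 0.18) and Ets1 (-0.05 ± 0.18) close to 0. Runx1, Bhlhe40 and Nr4a2 had groups without overlap, 1 of them higher and 2 lower in spleen. Of 10 tested retinoid genes, 2 had every spleen library below every liver library. Rara, the receptor whose truncated form the RARa403 mice carry, had 5.18, 5.56 and 5.37 log2 CPM in spleen and 5.48, 5.42 and 4.69 in liver (0.13 ± 0.33). Interferon response genes (29 tested, median -0.05) had no gene without overlap. Early response and heat shock genes (33 tested, median 0.27), glycolysis genes (21 tested, 0.08), lipid synthesis genes (25 tested, 0.15) and TGF-β pathway genes (16 tested, -0.11) had 1 gene each. The T cell list summed to 3135, 2922 and 2144 CPM in spleen and 2859, 3024 and 3004 CPM in liver. Cd4 stood out within it, with no counts in spleen library 1 and 6.36 and 5.25 log2 CPM in libraries 2 and 3, against 2.79, 2.17 and 2.51 log2 CPM in liver. Of the 18 ILC2 and ILC3 genes, 8 were tested, with a median of -0.14. Checkpoint genes had a median of -0.22 over 12 tested and, leaving out spleen library 1, of -0.75, with 5 of the 12 below liver in both spleen libraries, against 10.3% of all genes.

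B cell genes, set aside above, had the largest fold changes. Of the 31 listed, 21 passed the filter over 6 libraries, all with a positive fold change (median 3.48), and 30 passed without spleen library 1 (median 5.31). Members with no liver counts can pass the filter only through spleen libraries, so their direction was fixed by it and is no test. Igkc, the κ light chain gene, had 0.70, 6.78 and 9.20 log2 CPM in spleen libraries 1, 2 and 3 and no counts in liver libraries. Some genes outside the list followed it. March1, a ubiquitin ligase gene active in cells that present antigen, had -1.23, 4.87 and 5.32 log2 CPM in spleen, against -1.18 log2 CPM in liver library 1 and no counts in libraries 2 and 3. Pld4 had no counts, 3.37 and 6.18 log2 CPM in spleen, and Fcmr, the Fc receptor for IgM, no counts, 3.76 and 6.81. Fcgr2b, the inhibitory IgG receptor gene, had 0.33, 5.57 and 5.26 log2 CPM in spleen and at most 0.67 in liver, but also 6.74, 6.66 and 6.85 in NK libraries. The order of March1, Pld4 and Fcmr over the spleen libraries was that of the B cell list, and the part of B cells in them was not tested.

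The organ comparison in RARa403 ILC1s shares no library with the control comparison. With all 6 RARa403 libraries edgeR called 0 of 12011 genes (380, or 3.16%, at an unadjusted p under 0.05, 1.6% higher and 1.57% lower in spleen, and DESeq2 called 33). Every spleen library was above every liver library in 4.12% of genes and below in 5.54%. The medians there were -0.32 for residency genes, 0.09 for egress genes, 0.39 for NK genes and 0.45 for Ly49 genes, and the cell cycle list had the opposite sign, with 37 of 50 genes positive and a median of 0.85. All 25 mitosis genes were positive there (median 1.89), where all 25 were negative in control cells. No gene passed the test of the difference between control and RARa403 organ effects (edgeR, 0 of 13983, smallest adjusted p 1.00, 510 genes at an unadjusted p under 0.05), so a difference between genotypes was not shown.

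In Cxcr6, As3mt, Fam69a and Klra4, RARa403 library 1 of each organ went against libraries 2 and 3. Some other genes ran as labelled in all 3. Cxcr6 had 10.31, 8.95 and 8.93 log2 CPM in RARa403 spleen libraries 1, 2 and 3, against 8.89, 10.34 and 10.35 log2 CPM in RARa403 liver libraries. The mean of the mitosis genes was 5.95, 3.24 and 0.67 log2 CPM in RARa403 spleen and 0.62, 2.90 and 2.90 log2 CPM in RARa403 liver libraries. In this mean, spleen library 2 was above liver libraries 2 and 3 as library 1 was, and spleen library 3 was below them. In Cxcr6 the library labelled spleen 1 had the values of liver libraries 2 and 3, and the library labelled liver 1 those of spleen libraries 2 and 3. As3mt had 0.26, 5.33 and 4.97 log2 CPM in RARa403 spleen libraries 1, 2 and 3, against 5.50, 2.06 and 2.36 in RARa403 liver. Fam69a had 3.62, 6.93 and 6.33 in RARa403 spleen and 6.28, 4.68 and 4.88 in RARa403 liver. Klra4 had 3.71, 6.69 and 7.13 in RARa403 spleen and 7.10, 3.76 and -1.71 in RARa403 liver. March1 was between 2.75 and 4.14 log2 CPM in the 3 RARa403 spleen libraries and had no counts in RARa403 liver libraries, and Tcf7 had 8.50, 9.03 and 8.56 log2 CPM in RARa403 spleen and 8.09, 7.38 and 8.25 in RARa403 liver. Of 19 tested B cell genes, 9 had every RARa403 spleen library above every RARa403 liver library, against 4.12% of all genes. Whether the libraries labelled 1 were exchanged was not tested.

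Without library 1 of either organ, chosen after seeing these values, edgeR called 0 of 12303 genes (798 at an unadjusted p under 0.05), and every spleen library was above every liver library in 18.1% of genes and below in 18.9%. The medians were then -0.60 for residency genes, 0.94 for egress genes, 1.03 for NK genes, 2.34 for Ly49 genes and -1.15 for ILC1 signature genes, each with the sign of the control comparison. Library 1 of each organ was left out for values that ran against the labels, so these signs are no independent test. The cell cycle median was -0.39, with 34 of 50 genes negative, and the mitosis genes were 11 positive and 14 negative (median -0.38).

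**Figure D4:**
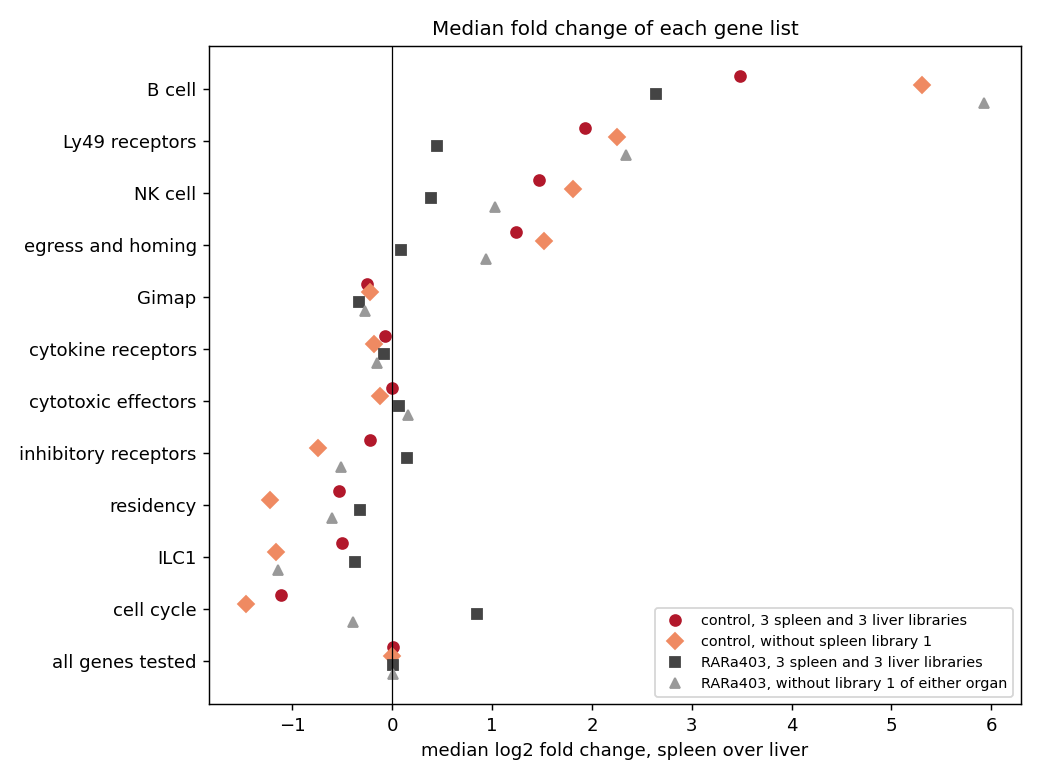
Median log2 fold change, spleen over liver, of each gene list and of all genes tested, for control libraries with and without spleen library 1 and for RARa403 libraries with and without library 1 of either organ. The Ly49, NK and egress medians lie right of 0 and the residency and ILC1 medians left of 0 in all 4 versions, while the cell cycle median changes side in the RARa403 comparison with all libraries.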

How the data were processed

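RNA of sorted cells was amplified with a SMART-seq kit and sequenced, per the labels' protocols. The authors deposited a table of raw counts per gene for all 18 libraries; fastp 0.23.0, HISAT2 2.1.0, featureCounts of Subread 1.6.5 and the mm10 build are named in the submitters' processing notes. The sources used here do not give the annotation release, strand setting or treatment of multiply matching reads. Of 46078 gene IDs, 45143 matched a symbol in the reference gene name tables, and 935 did not and stayed in the fits without a name. Every table column was assigned to a sample.

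Counts were fitted in R 4.3.3 with edgeR 4.0.16 (filterByExpr with a minimum count of 10, TMM scaling, quasi-likelihood test, Benjamini-Hochberg adjustment over all genes tested, threshold 0.05), on the 6 libraries and again without spleen library 1. Both were checked on simulated data. The SE is the fold change divided by the square root of the test's F. Log2 CPM used TMM scaling over all 18 libraries and a prior count of 2. A gene with no counts was taken at a floor of 3 counts per library for folds only. A gene with few or no counts in every library of 1 organ can pass the filter only through the other organ. The direction of such a gene is no test. Alternatives were DESeq2 1.42.0, limma-voom (limma 3.58.1), other scaling, no filter, a fold threshold, all libraries in 1 fit, a replicate block, removal of B cell and immunoglobulin genes (454 genes in the table), and each library left out.

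Up to 10 genes per direction and fit were named from genes without overlap and with the higher group's mean at 3 log2 CPM or above, by smallest p since none passed, leaving out unnamed, immunoglobulin and B cell list genes. Another 21 genes were set to be always reported, of which 1 is not reported here, and for each list up to 2 members with the smallest p. Gene lists (33 lists, 710 entries, 708 matched) and the choice of comparisons were made with earlier results of these data known. Other members named as examples, the mitosis and replication split, and the RARa403 comparison without library 1 were chosen after seeing values. Depth was 3452279 to 8214734 counts per library, so 3 counts are 0.358 to 0.839 CPM. P-values and SEs rest on 3 libraries a group.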

Additional observations from a re-analysis of the deposited data

How the results depend on the processing

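The sign of the cell cycle, residency, ILC1, egress, NK and Ly49 medians was the same in all 15 settings with spleen library 1, and in all 14 without it. With it the ranges were -1.53 to -0.88, -1.22 to -0.28, -1.16 to -0.33, 0.95 to 1.68, 1.23 to 1.88 and 1.61 to 2.54 in that order. Counts of genes past the threshold depended on the tool and the filter, and the cause was not tested. With 6 libraries, DESeq2 called 36 (19 higher, 17 lower) and edgeR without the count filter 232 (163 higher, 69 lower), and 0 passed with any one library left out. Without spleen library 1, DESeq2 called 217, limma-voom 1, no filter 373 (238 higher, 135 lower), and leaving out a further library gave 0 to 20, with 20 only when spleen library 2 was also left out, which leaves 1 spleen library assumed to vary like the others. In RARa403 cells DESeq2 called 33 and no filter 70, and the test of the difference between genotypes gave 92 with no filter. Replicate numbers are shared between organs, but same-numbered libraries did not deviate together (correlations 0.044, 0.13 and -0.0019 over 11989 genes), so the numbers did not meet the rule for pairing. Library names and Xist, high in library 3 of both organs, leave it unknown whether same-numbered libraries share an animal. The replicate block gave 0 calls with 6 libraries and 15 without spleen library 1. Of the genes reported, those near 0 turned sign. With 6 libraries, Tbx21 was -0.00111 by limma-voom, -0.000826 with all 18 libraries, -0.0088 with the block and -0.18 to 0.14 leaving out a library. Itgae was -0.29 by limma-voom, -0.30 with libraries 2 and 3 alone and -0.54 to 0.51 leaving out a library. Cd69 was -0.20, -0.00381 with all 18 libraries, -0.0437 with the block, -0.32 with libraries 2 and 3 alone and -0.33 to 0.21. Gzma was -0.18 with libraries 2 and 3 alone and -0.19 to 0.40, and Rara -0.079 to 0.28. Without spleen library 1, leaving out a further library gave -0.061 to 0.33 for Tbx21, -1.70 to 0.11 for Itgae and -0.41 to 0.071 for Gzma. At 3 counts per library the depth gives a floor of 0.358 to 0.839 CPM; whether depth or the spread between libraries limited the calls was not tested.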
